A study of Mus musculus with 20 samples.

Results

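Amino acid starvation of Ogt knockout cells was followed by Ribo-seq in 4 of the 20 libraries of the series, namely 2 from fed and 2 from starved knockout cells. They were chosen by their titles, and starved replicate 1 was set against fed replicate 1 and starved replicate 2 against fed replicate 2. The cells were mouse embryonic fibroblasts of strain C57BL/6J, grown in DMEM with 10% fetal bovine serum. Knockout cells, fed and starved alike, had received 0.5 µM 4-OHT for 24 h to delete Ogt and then fresh medium for 24 h. Starved cells spent 2 h in DMEM with "DFBS", which the labels leave unexplained. Control cells, fed or starved in the same way with 2 libraries each, formed the reference background. The labels give 4-OHT for knockout cells alone, so loss of Ogt and that treatment cannot be told apart wherever knockout and control cells are compared. A further 4 Ribo-seq libraries came from cells given Thiamet-G, which inhibits the enzyme that removes O-GlcNAc. The labels do not describe the allele, the Cre that deletes it, the number of clones, or whether replicates were separate cultures. The p-values therefore reflect only how far these libraries differ, and that spread could be technical.

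O-GlcNAc transferase, the product of Ogt, adds single N-acetylglucosamine residues to serines and threonines of nuclear and cytoplasmic proteins, and the reaction depends on the nutrient state of the cell. When amino acids are short, uncharged tRNAs activate the kinase GCN2, which phosphorylates eIF2α, lowers the initiation of most mRNAs and favours reinitiation at a few, among them the mRNA of the transcription factor ATF4. Amino acid shortage also silences mTORC1, which lowers translation of mRNAs that begin with a terminal oligopyrimidine tract, such as those of ribosomal proteins and elongation factors. Ribo-seq counts the fragments that ribosomes protect, so a value reflects both the amount of an mRNA and the ribosomes on it. The series title concerns O-GlcNAc on eIF3a and reinitiation in this stress response. The comparison therefore asked how starvation changed ribosome occupancy in cells without the transferase.

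The files gave Ensembl transcript identifiers with an RPKM, reads divided by transcript length and by the size of the library, and did not pair identifiers with gene names. The reference tables matched 0 of the 15354 identifiers. Ogt itself, Atf4, fibroblast markers and the ribosomal protein genes were therefore not analysed here, and transcripts are described by level and coding length, with 4 identifiers printed. The steps between RPKM values gave back whole reads and a coding length for 13278 transcripts, with a median length of 1446 nt. This assumes that coding lengths are multiples of 3. The knockout libraries held 4328260 reads (fed replicate 1), 1350105 (fed replicate 2), 2924387 (starved replicate 1) and 844403 (starved replicate 2), with a median of 145, 40, 108 and 26 reads per listed transcript. Both replicate 1 files listed transcripts almost wholly from 5 reads, whereas both replicate 2 files listed them from 1 read. Replicate number and this difference in listing cannot be told apart, and each within-replicate difference lies inside 1 kind of file. Starved replicate 2 was the shallowest of the 12 Ribo-seq libraries. None of the 4 knockout Ribo-seq libraries was a duplicate of another, and the other libraries were not checked for this.

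No transcript passed the test for a starvation difference in knockout cells. Limma on log2(RPKM + 1), with 1 estimate of the spread over all 12 Ribo-seq libraries, called 0 of 10936 transcripts at a Benjamini-Hochberg adjusted p under 0.05 (percent called 0), and 99 (0.905%) had an unadjusted p under 0.05. Limma-voom on the recovered reads also called 0, with 61 transcripts at an unadjusted p under 0.05. The starvation difference in knockout cells minus that in control cells was called for 0 of 10936 transcripts by limma (percent called 0), with 216 (1.98%) at an unadjusted p under 0.05. Without fed knockout replicate 1 the number at an unadjusted p under 0.05 was 527, and without starved knockout replicate 1 it was 461, with 0 called in either fit. Evenly spread p-values would put a share of 0.05 of the transcripts under 0.05. All of the counts above lie below that share, so they are not counts of responding transcripts. The transcripts below are described by their values.

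In every comparison that follows, RPKM values were rescaled by a median ratio, and a log2 difference is log2(starved + 1) minus log2(fed + 1) within a replicate. Over well-read transcripts, the SDs per pair, the correlations between Ribo-seq pairs and the distances between libraries were taken without adding 1. Transcripts with at least 50 reads in each of the 12 Ribo-seq libraries are termed well read and numbered 2265. In knockout cells their log2 differences spread with an SD of 0.615 in replicate 1 and 0.714 in replicate 2. Counting error alone gives an SD of 0.0951 and 0.162 at these depths. The corresponding SDs were 1.29 and 0.925 in control cells and 1.03 and 1.05 in Thiamet-G cells. By title, each Thiamet-G pair joins a file listed from 5 reads to a file listed from 1 read, unlike the knockout and control pairs. Its SD thus includes any difference between these kinds of file. Paired within a kind of file, the Thiamet-G SDs were 0.820 and 0.924. The values below keep the title numbers. Both knockout pairs were thus narrower than each of the other 4 pairs. The mean SD was 0.664 ± 0.0700 (SD, n = 2 pairs) in knockout cells and 1.07 ± 0.154 (SD, n = 4 pairs) in the others, a difference of -0.409. A two-sided exact permutation test gave p = 0.133, the smallest value that 2 pairs against 4 can reach, so this design cannot pass 0.05.

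**Figure D1:**
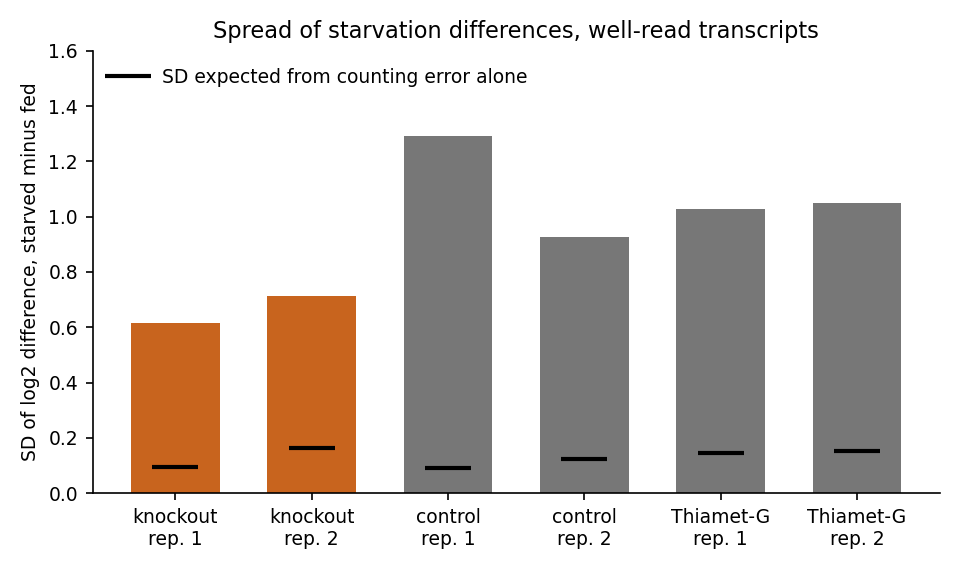
SD of the starvation difference, log2(starved) minus log2(fed) in RPKM, over 2265 well-read transcripts for each of the 6 within-replicate pairs, with knockout pairs in orange and the others in grey. Black dashes mark the SD that counting error alone would give; the knockout bars, at 0.615 and 0.714, are the lowest, and all bars stand far above the dashes.

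The share of transcripts that differed by 2-fold or more showed the same order. Among well-read transcripts of knockout replicate 1, 72 were at least 2-fold higher and 106 at least 2-fold lower in starved cells. In knockout replicate 2 the numbers were 204 and 133. Control replicate 1 had 483 higher and 541 lower, and control replicate 2 had 284 and 228. Over all 10936 tested transcripts, which include thinly read ones, the SD was 0.653 in knockout replicate 1 and 1.46 in replicate 2, against 1.23 and 1.42 in control cells. The narrow spread of knockout replicate 2 was therefore seen in well-read transcripts and not over all transcripts. Its median depth of 26 reads in starved cells was the lowest of the knockout and control Ribo-seq libraries, a coincidence whose part was not tested.

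The pair of knockout differences had little in common. Across the 2265 well-read transcripts they correlated at r = -0.0777 (Spearman's rho -0.138), whereas the pair of control differences correlated at r = 0.398 (rho 0.414). These are correlations across transcripts within the same libraries, and transcripts are not independent replicates. With at least 20 reads per library (4204 transcripts) the knockout value was -0.114, and with at least 100 reads (1145 transcripts) it was -0.0232, so the lack of agreement was also present where reads were plentiful. The difference in knockout replicate 1 correlated with that in control replicate 1, which shares its kind of file, at 0.592 and with that in control replicate 2 at 0.243. The difference in knockout replicate 2 correlated with the control differences at 0.00760 and -0.00890. Knockout and control cells share no library in these values.

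**Figure D2:**
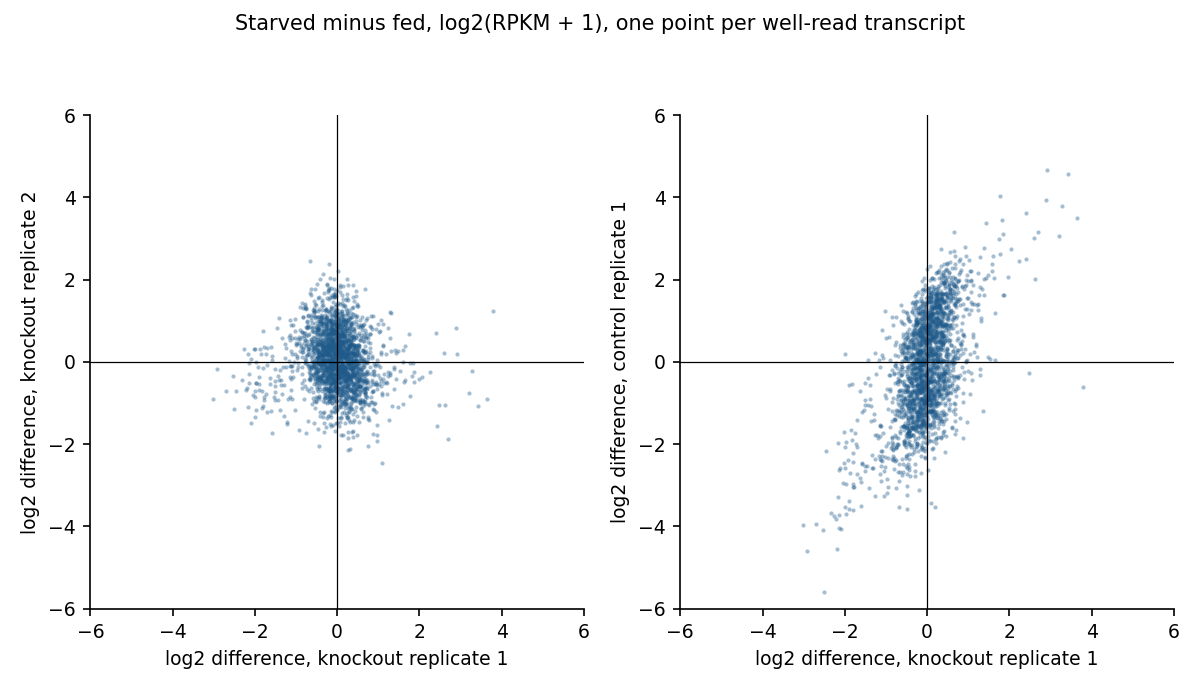
Starvation difference of each of 2265 well-read transcripts in knockout replicate 1 (horizontal axis, log2) against knockout replicate 2 (left panel) and control replicate 1 (right panel), on equal axes. The left cloud has no slope (r = -0.0777), whereas the right cloud is drawn out along the diagonal and is taller than it is wide (r = 0.592, SD 1.29 against 0.615).

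The transcripts that stood out in one pair were followed into the others. The 106 well-read transcripts that were at least 2-fold lower in knockout replicate 1 had a median log2 difference of -0.37 in knockout replicate 2, where 71 of them (67.0%) were lower, against 47.5% of all well-read transcripts. In control cells the same 106 had medians of -2.33 and -1.07. There 98 (92.5%) and 86 (81.1%) of them were lower, against 51.2% and 50.7% of all well-read transcripts. The 72 that were at least 2-fold higher in knockout replicate 1 had medians of 1.84 and 0.45 in control cells. There 64 (88.9%) and 51 (70.8%) were higher, against 48.8% and 49.3% of all. In knockout replicate 2 their median was -0.26 and 26 of 72 (36.1%) were higher, against 52.5% of all. Transcripts with a decrease in replicate 1 thus leaned the same way in 3 other pairs, and those with an increase did so in both control pairs but not in knockout replicate 2. The transcripts chosen in knockout replicate 2 had medians of opposite sign in knockout replicate 1, at -0.08 for the 204 that were higher and 0.19 for the 133 that were lower. Of the 204, 81 (39.7%) were higher there, against 49.7% of all, and 4 (1.96%) by at least 2-fold, against 3.18%. Of the 133, 47 (35.3%) were lower there, against 50.3% of all. Yet 15 (11.3%) were at least 2-fold lower, against 4.68% of all.

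The reverse reading gives the size of the response in knockout cells to the transcripts that moved most in control cells. Of 541 well-read transcripts at least 2-fold lower in control replicate 1, with a median of -1.57 there, 423 (78.2%) were lower in knockout replicate 1, with a median of -0.33. In knockout replicate 2, 276 of them (51.0%) were lower, with a median of -0.02. Control replicate 2 itself had a median of -0.42 for these 541, with 392 (72.5%) lower. Of all well-read transcripts, 50.3% were lower in knockout replicate 1, 47.5% in knockout replicate 2 and 50.7% in control replicate 2. Of 228 transcripts at least 2-fold lower in control replicate 2, the median was -1.15 in control replicate 1, -0.17 in knockout replicate 1 and 0.14 in knockout replicate 2. The 483 transcripts at least 2-fold higher in control replicate 1 had medians of 0.31 and 0.05 in knockout cells and 0.50 in control replicate 2.

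Before starvation, knockout cells were closer to starved than to fed control cells. The SD of the log2 ratio over well-read transcripts was 0.752 between fed knockout and starved control cells in replicate 1, and 1.01 between fed knockout and fed control cells. In replicate 2 the values were 0.649 and 0.882. The starved knockout and starved control libraries of replicate 1 were the closest pair of those compared within a replicate, at 0.454. In replicate 2 the corresponding distance was 0.790, larger than between fed knockout and starved control cells. Libraries of one group but of different replicates lay 0.922 to 1.08 apart, so the replicates of a group differed more than fed and starved knockout cells did within either replicate (0.615 and 0.714).

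The share of reads on short coding regions moved in opposite directions in the knockout replicates. Transcripts of at most 600 nt held 25.2% of reads in fed and 21.6% in starved knockout cells of replicate 1, and 28.4% and 30.9% in replicate 2. The fed and starved values overlapped. In control cells these shares were 43.1% and 21.1% in replicate 1 and 34.5% and 27.1% in replicate 2, lower after starvation in both. The fed knockout libraries thus lay below both fed control libraries in their share of reads on short coding regions. Among the 575 well-read transcripts of this class the median log2 difference was -0.11 and 0.15 in knockout cells, against -1.16 and -0.32 in control cells.

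**Figure D3:**
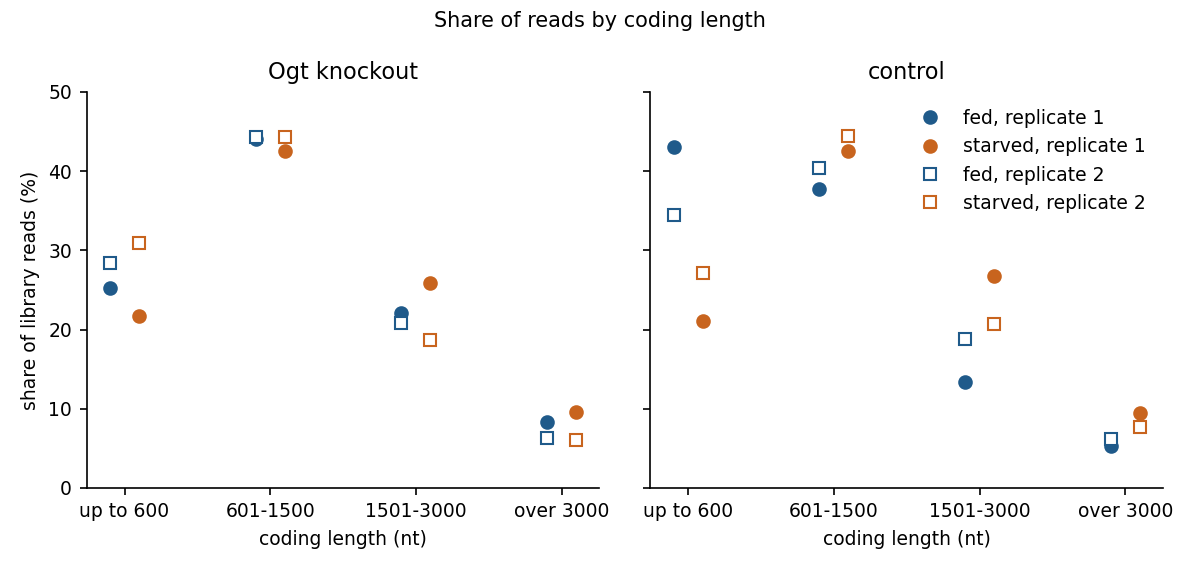
Share of each library's reads (%) on transcripts of 4 classes of coding length in knockout (left) and control cells (right), with fed libraries in blue, starved in orange, replicate 1 as filled circles and replicate 2 as open squares. In the shortest class the 4 knockout libraries lie between 21.6% and 30.9% with fed and starved mixed, and the fed control libraries lie highest, at 34.5% and 43.1%.

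Longer coding regions had medians near 0 in knockout cells. For 451 well-read transcripts of over 1500 and up to 3000 nt, the medians were 0.12 and -0.04 in knockout cells and 0.85 and 0.20 in control cells. For 136 transcripts over 3000 nt they were 0.13 and 0.14 in knockout cells and 0.94 and -0.10 in control cells. Levels gave a like picture. The 217 transcripts that averaged at least 1000 RPKM over the 4 knockout libraries had medians of -0.26 and 0.16 in knockout cells, and of -0.93 and -0.32 in control cells. Their median coding length was 411 nt, so level and length overlap in these classes.

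Few transcripts differed by 2-fold or more in the same direction in both knockout pairs. Among 10936 tested transcripts, 79 were higher (0.722%) and 114 lower (1.04%) in both, while 317 were past 2-fold in opposite directions. In control cells 595 were higher and 647 lower in both, and 643 were opposite. Both starved knockout libraries lay above both fed ones for 1070 transcripts (9.78%) and below them for 1107 (10.1%). The control numbers were 2006 (18.3%) and 2061 (18.8%). With 2 libraries a group such separation is common without any effect, so these are not counts of responding transcripts in either background. With the filter at a mean of 10 RPKM over the knockout libraries, 38 of 7210 transcripts were higher (0.527%) and 44 lower (0.61%) in both pairs. Among the 2265 well-read transcripts, 4 were higher (0.177%), 15 lower (0.662%) and 13 opposite, against 120, 120 and 31 in control cells.

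The 15 well-read transcripts that were lower in both knockout pairs were mostly short and highly read. Their median coding length was 537 nt, against 981 nt for all well-read transcripts. Of the 15, 8 had at most 600 nt, as did 575 of all 2265 well-read transcripts. Their median level was 838 RPKM, against 174 RPKM for all. By the same measures the 120 that were lower in both control pairs had medians of 480 nt and 582 RPKM. Short length and high level were thus not particular to the knockout set. The 15 were picked for their values in the knockout libraries and carry no test as a list. That choice itself favours small p-values and a lack of overlap in knockout cells, and it also enters their interactions. Of the 15, 14 were also lower in control replicate 1, 12 in control replicate 2 and 11 in both. Of all well-read transcripts, 51.2% were lower in control replicate 1 and 50.7% in control replicate 2, and the share lower in both was not counted. The medians were -1.71 and -1.20 in knockout cells and -2.46 and -0.91 in control cells. In the limma fit 13 of the 15 had an unadjusted p under 0.05, against 0.905% of all tested transcripts. The fit uses the values by which the 15 were picked, so this count is no support. The adjusted p was 1 for the transcripts named from them.

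**Figure D4:**
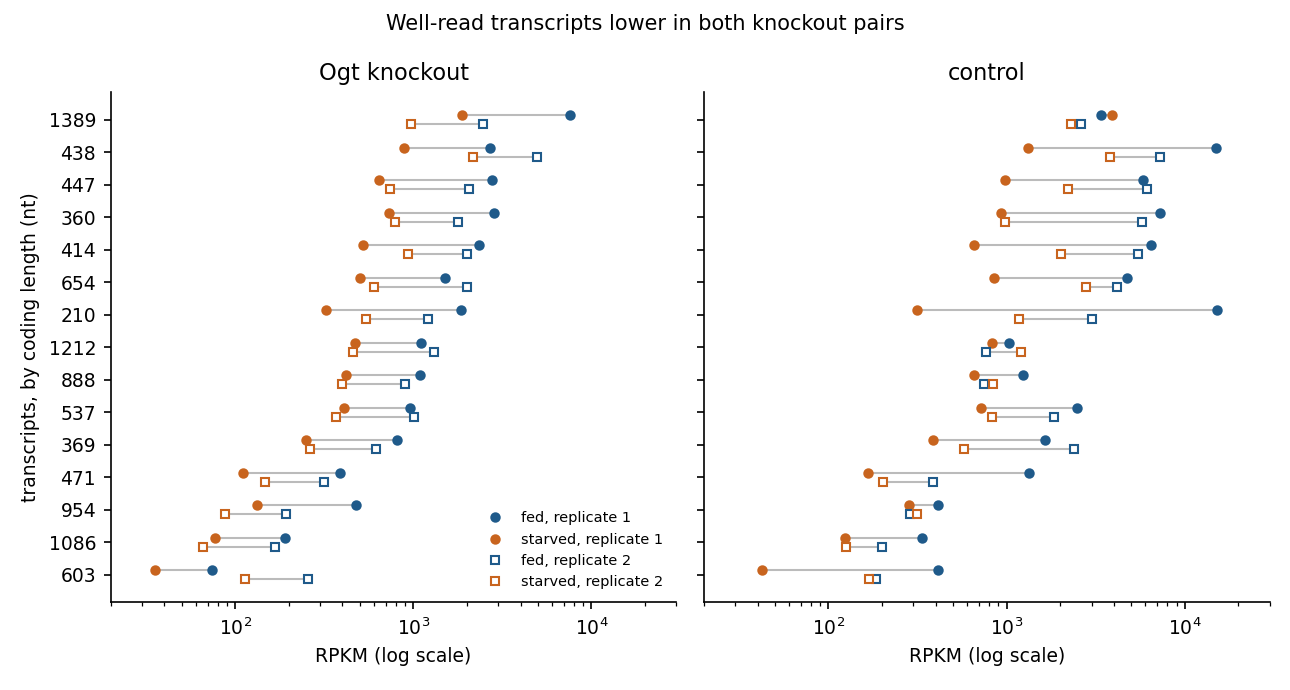
RPKM (log scale) of the 15 well-read transcripts that were at least 2-fold lower in both knockout pairs, one row per transcript labelled by coding length in nt and ordered by level, in knockout (left) and control cells (right). Grey lines join fed (blue) and starved (orange) libraries of replicate 1 (filled circles) and replicate 2 (open squares); every knockout line runs leftwards from fed to starved by construction, whereas the 1389 nt transcript in the top row has overlapping control values.

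ENSMUST00000143107, with a coding length of 447 nt, measured 2748 and 2062 RPKM in fed and 638 and 735 RPKM in starved knockout cells (replicates 1 and 2). Both starved libraries lay well below both fed ones, and the mean went from 2405 ± 485 to 686 ± 68.9 RPKM (SD, n = 2 each). The limma log2 difference was -1.80 with an SE of 0.55 (unadjusted p = 0.0063, adjusted p = 1). Control cells gave 5863 and 6149 RPKM fed and 976 and 2204 RPKM starved, also without overlap. Each knockout library lay below the control library of its condition and replicate, and the interaction was 0.24 (95% interval -1.44 to 1.92, adjusted p = 1 by limma).

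ENSMUST00000042235, of 1389 nt, had the highest level of the 15. It measured 7545 and 2462 RPKM in fed and 1880 and 971 RPKM in starved knockout cells, so the groups did not overlap although the fed replicates lay far apart. The values rested on 50214, 4793, 8664 and 1166 reads in that order. The limma log2 difference was -1.67 with an SE of 0.61 (unadjusted p = 0.0177, adjusted p = 1). It was -0.86 without fed knockout replicate 1 and -2.48 without fed knockout replicate 2. In control cells it measured 3375 and 2620 RPKM fed and 3879 and 2305 RPKM starved, which overlapped. The interaction was -1.68 (95% interval -3.56 to 0.20, adjusted p = 1 by limma), so a difference between the backgrounds did not pass the test.

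A transcript of 1212 nt in this set had tight replicates, at 1106 and 1314 RPKM in fed and 471 and 461 RPKM in starved knockout cells. Control cells gave 1025 and 767 RPKM fed and 829 and 1209 RPKM starved, which overlapped. Its interaction was -1.54 (95% interval -2.91 to -0.18, adjusted p = 1 by limma), the only one of the 15 past 0.05 before adjustment. Another, of 360 nt, went the same way in both backgrounds, with 2834 and 1787 RPKM fed and 727 and 787 RPKM starved in knockout cells. In control cells it measured 7234 and 5783 RPKM fed and 926 and 975 RPKM starved, so its fed level was the value that differed most between the backgrounds.

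A transcript of 210 nt showed the widest gap of the 15 between fed knockout and fed control cells of replicate 1. It measured 1843 and 1203 RPKM in fed and 321 and 546 RPKM in starved knockout cells. In control cells it went from 15236 and 2996 RPKM to 314 and 1167 RPKM, and the fed control replicates were far apart. A transcript of 654 nt measured 1509 and 1993 RPKM fed and 501 and 600 RPKM starved in knockout cells, and 4716 and 4140 RPKM fed and 853 and 2779 RPKM starved in control cells. Neither transcript had overlapping fed and starved libraries in either background.

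Of the 4 well-read transcripts that were higher in both knockout pairs, ENSMUST00000112551 had the closest replicates. It was chosen after its values were seen, which favours a lack of overlap in knockout cells, and has a coding length of 537 nt. It measured 292 and 349 RPKM in fed and 723 and 799 RPKM in starved knockout cells, without overlap, and the mean went from 321 ± 40.7 to 761 ± 54.2 RPKM (SD, n = 2 each). The limma log2 difference was 1.25 with an SE of 0.59 (unadjusted p = 0.0537, adjusted p = 1). Control cells gave 488 and 236 RPKM fed and 1030 and 350 RPKM starved, higher within each replicate but overlapping between the groups. The other 3 had coding lengths of 294, 894 and 1608 nt. The one of 1608 nt went from 33.2 to 472 RPKM in replicate 1 and from 208 to 490 RPKM in replicate 2, whereas control cells went from 441 to 289 RPKM in replicate 1 and from 58.6 to 335 RPKM in replicate 2, in opposite directions.

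A second selection started from transcripts that averaged at least 10 RPKM over the knockout libraries and kept the 15 in each direction whose smaller within-replicate difference was largest. This choice, too, favours a lack of overlap in knockout cells. It reached thinly read transcripts. All 15 that were higher had under 20 reads in at least 1 knockout library, and 11 of the 15 that were lower did. ENSMUST00000052622, of 321 nt, had the highest mean RPKM of the higher ones. It measured 142 and 20.0 RPKM in fed and 421 and 148 RPKM in starved knockout cells, from 218, 9, 448 and 41 reads, so the groups did not overlap although they nearly touched. Control cells gave 48.0 and 11.3 RPKM fed and 420 and 41.5 RPKM starved. The limma log2 difference in knockout cells was 2.19 with an SE of 1.98 (unadjusted p = 0.288, adjusted p = 1). It was 3.58 and 0.81 without fed knockout replicates 1 and 2, and 1.44 and 2.94 without starved knockout replicates 1 and 2, so its size depended on each of the 4 libraries.

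A transcript of 2328 nt in the same set had the widest difference in replicate 1. It went from 39.9 to 621 RPKM in replicate 1 and from 3.06 to 15.4 RPKM in replicate 2, and the fed value of replicate 1 exceeded the starved value of replicate 2. In control cells it went from 14.5 to 693 RPKM and from 12.7 to 26.2 RPKM. The level after starvation was thus far higher in replicate 1 than in replicate 2 in both backgrounds. Of the 15 higher transcripts, 11 were also higher in both control pairs, with control medians of 1.68 and 0.99. Of the 15 lower ones, 7 were lower in both control pairs, with medians of -1.46 and -0.18. Among all transcripts past this filter with a direction in both control pairs, 60.4% went the same way in both, higher and lower together.

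The most abundant footprints also differed between replicates. The 10 transcripts with the most reads held 4.80% and 6.06% of reads in fed and 3.76% and 5.20% in starved knockout cells. One of 1545 nt measured 659 and 1105 RPKM in fed and starved cells of replicate 1 and 13499 and 6671 RPKM in those of replicate 2. One of 684 nt measured 813 and 1091 RPKM in replicate 1 and 9897 and 6275 RPKM in replicate 2. The control libraries divided in the same way by replicate, with 450.5 to 592 RPKM in replicate 1 and 11749 to 17853 RPKM in replicate 2 for the first of these. A transcript of 360 nt was steady, at 15916 and 18314 RPKM fed and 18637 and 20876 RPKM starved.

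Some transcripts were listed in one condition alone. In replicate 1, 380 were listed in fed and not in starved knockout cells and 143 the other way round, against 10232 listed in both. In replicate 2 these numbers were 1340, 958 and 10108. In both replicates, 86 were listed in fed cells alone and 27 in starved cells alone. Such transcripts had few reads, with a median of 7 in the first set and 6 in the second, and the starved libraries were the shallower in each replicate, so this imbalance and depth cannot be told apart.

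The knockout cells were also assayed by eIF3-80S-seq, which samples footprints of ribosomes that carry the initiation factor eIF3, with 1 fed and 1 starved library and hence no replicate check. These held 154618 and 229599 reads. For 1117 well-read transcripts with at least 20 reads in both, the starvation difference in that assay correlated with the Ribo-seq difference at r = 0.439 in knockout replicate 1 and -0.220 in knockout replicate 2, across transcripts. The control Ribo-seq differences gave 0.291 and 0.189. Of 89 transcripts at least 2-fold lower in eIF3-80S-seq, 76 were lower in Ribo-seq replicate 1 and 29 in replicate 2. Of 53 that were at least 2-fold higher, 47 were higher in replicate 1 and 17 in replicate 2. Over all 2265 well-read transcripts, 50.3% and 47.5% were lower in knockout Ribo-seq replicates 1 and 2, and 49.7% and 52.5% were higher. The files of this assay, like those of replicate 1, listed transcripts from 5 reads, and the part of that shared listing was not tested.

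**Figure D5:**
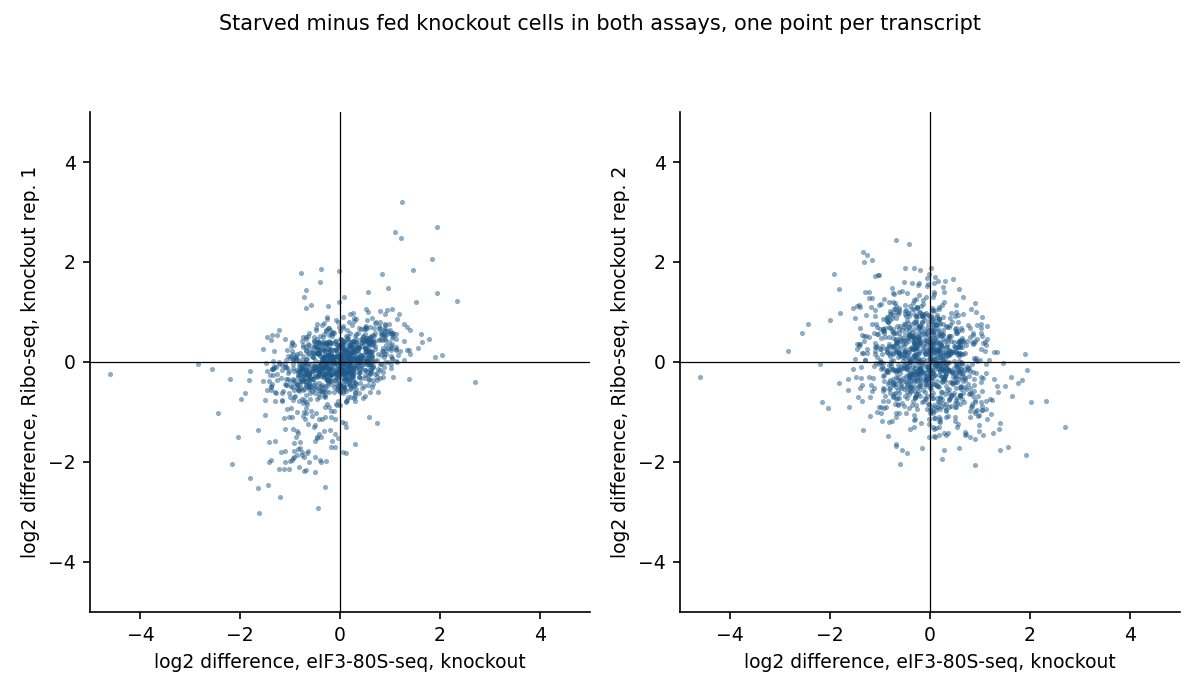
Starvation difference in knockout cells by eIF3-80S-seq (horizontal axis, log2 ratio of RPKM, 1 library per condition) against that by Ribo-seq in replicate 1 (left) and replicate 2 (right) for 1117 transcripts. The left cloud slopes upwards (r = 0.439) and the right cloud downwards (r = -0.220).

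All 15 well-read transcripts that were lower in both Ribo-seq pairs were listed in both eIF3-80S libraries. After starvation 10 of them were lower there, with a median log2 ratio of -0.30. The rescaling had split all transcripts listed in both of these libraries about evenly between lower and higher. ENSMUST00000143107 measured 1637 RPKM fed and 920 RPKM starved in that assay, from 109 and 98 reads. ENSMUST00000042235 measured 4021 and 3066 RPKM, from 832 and 1015 reads. The 1212 nt transcript with tight Ribo-seq replicates had 1030 and 1101 RPKM there, so its lower Ribo-seq level had no counterpart in this assay. ENSMUST00000112551 measured 150 and 328 RPKM, in the direction of its Ribo-seq values but from 12 and 42 reads.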

How the data were processed

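Titles gave each library its group and replicate number. The authors deposited 1 file per library with RPKM per transcript, with cutadapt, STAR and GRCm38 named in the submitters' processing notes. Not given in the sources used here are the read counter, annotation release and filters. The total of each library was recovered as a common divisor of the RPKM steps within it. RPKM times that total gave reads per nt as a fraction. A coding length was the least common multiple of its denominators over libraries, and whole reads followed from it. The relative tolerance was 1e-09 for a fraction and 1e-05 for a whole number of reads. Totals were set on the assumption that coding lengths are multiples of 3, so it is no check that 99.79% of the lengths were. The procedure was tested on simulated data whose lengths were also multiples of 3, which leaves that assumption unchecked. A transcript that a file did not list was taken as 0. Unlisted and thinly read transcripts have the largest error, and log2(RPKM + 1) understates their differences.

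Libraries were rescaled by median ratios to a geometric mean reference, taken from transcripts present in all 12 Ribo-seq files. Limma 3.58.1 in R 4.3.3 (lmFit, eBayes with a trend) tested transcripts averaging at least 1 RPKM in a joint fit of the 6 groups (6 residual degrees of freedom). The two-sided threshold was a Benjamini-Hochberg adjusted p of 0.05. eIF3-80S values were rescaled within that assay and not tested. Alternatives covered the pseudocount, filters, scaling, replicate block, samples fitted, variance prior, limma-voom on recovered reads (at least 10 on average, scaled to library totals) and single libraries left out.

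Named transcripts came from the 15 per direction that averaged at least 10 RPKM in knockout libraries, with the same sign in both replicates and the largest smaller difference. At most 2 identifiers are printed per direction. Those with the highest mean RPKM were taken, except the 1 said to be chosen later, and gene lists were left out because no identifier matched a symbol. The members and lists were chosen with earlier results of these data known. Well-read, length and level classes were set after seeing values.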

Additional observations from a re-analysis of the deposited data

Results flagged for a closer look

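Of 45 transcripts in the sets described above, 1 moved in opposite directions in every pair of the backgrounds. This transcript of 600 nt was lower after starvation in both knockout pairs, at 16.0 and 46.4 RPKM in fed and 5.53 and 7.71 RPKM in starved cells, and higher in both control pairs, at 9.63 and 1.10 RPKM fed and 10.4 and 7.41 RPKM starved. The groups of knockout cells, by whose values it was picked, did not overlap, and those of control cells did. The interaction was -2.96 (95% interval -7.71 to 1.79, adjusted p = 1 by limma), so it did not pass the test. The starved knockout values rested on 11 and 4 reads. How many of all transcripts moved in this way was not counted.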

How the results depend on the processing

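The starvation contrast in knockout cells gave 0 calls in each of 18 alternative fits, with 61 to 527 transcripts at an unadjusted p under 0.05 and a lowest adjusted p of 0.0626 by limma, without the filter on low values. Leaving out single libraries gave 0 calls throughout, with 67 to 527 transcripts under 0.05 before adjustment. The same for the interaction gave 0 calls, with 50 to 657. A group left with 1 library was assumed to vary like the others. The replicate block gave 0 calls in both contrasts, with 111 and 248 at an unadjusted p under 0.05 for title numbers and 231 and 419 for batches of listing. Same-numbered libraries were set together in the within-replicate values, as the comparison was defined, but with 2 replicate numbers the pairing was not built into the test. Deviations from group means of same-numbered libraries correlated at 0.510 between fed and starved knockout cells and at 0.0345 to 0.626 over all pairs of knockout and control groups. One call appeared: limma-voom with the batch as replicate block called 1 transcript lower in the interaction (adjusted p = 0.000513), with 2238 and 10030 reads in fed and starved control replicate 2, 5411 and 753 in knockout replicate 2 and 0 in replicate 1. The 4 named transcripts kept their direction and were not called in any alternative that could be fitted. The difference in SD was -0.404 and -0.421 at 20 and 100 reads and -0.326 with Thiamet-G libraries paired by batch, all with an exact permutation p of 0.133; with both changes at 20 reads it was -0.304 (exact permutation p = 0.267). These, the fits that joined the batch block with listing in all files, and the block within knockout libraries were chosen after seeing the data. Gene list medians and shares were not run, because no identifier paired with a symbol. Depth limits replicate 2, where the median starved transcript had 26 reads.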
